A study of Mus musculus with 24 samples.

Results

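The comparison covered 6 of the 24 arrays of the study, chosen by their titles: 3 arrays of cultures kept for 15 h in 1 µM lactacystin and 3 arrays of cultures kept for 8 h at the same concentration. Both groups were primary neuronal cultures from the neocortex of Swiss albino mouse fetuses at gestation day 15 or 16, were on day 5 of culture when treated, and received the drug from a dimethyl sulfoxide stock diluted in Neurobasal medium, so that they differed by 7 h of exposure and by nothing else that the labels name. Biotin-labelled cRNA from each culture was hybridized to an Illumina MouseRef-8 V1.1 bead array, which measures transcripts by the brightness of bead-bound probes. The other 18 arrays came from 1 µM cultures at 5 and 24 h, from 0.1 µM cultures at 15 and 24 h (3 arrays each) and from 6 untreated cultures. They did not enter the test, and are used below only to place the levels. Neither the number of animals behind an array nor whether replicates were separate cultures is stated, so p-values measure the spread between these arrays, which may be technical. The 15 h arrays all lay at 1 position of the slides and the 8 h arrays at another, so position and time cannot be told apart, nor can exposure and age of the culture.

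The proteasome degrades proteins tagged with ubiquitin, and lactacystin blocks its catalytic subunits. Cells with a blocked proteasome accumulate damaged and short-lived proteins. The known responses include the heat shock response, driven by the transcription factor HSF1, the stress response of ATF4 and CHOP, the oxidant response of NRF2, and the stabilisation of p53, itself a proteasome substrate. Prolonged block kills cortical neurons in culture. The step from 8 to 15 h therefore shows which RNA levels still moved after the early response, and the question addressed here is which genes rose or fell within it.

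The 6 arrays were similar in brightness, with a median signal of 57.4 to 73.7 intensity units and 11317 to 11965 probes detected, and the number of arrays limits the precision. After normalization, arrays of the 15 h group differed pairwise by 0.23 to 0.302 log2 units (root mean square over genes), and arrays of the 8 h group by 0.204 to 0.254, while arrays of different groups differed by 0.515 to 0.558. Neuronal transcripts, which the labelled cell type calls for, were bright: Dcx, a microtubule protein of young neurons, read 12.07, 12.16 and 12.04 log2 units at 15 h, against 12.68, 12.65 and 12.81 at 8 h (a dimmer probe differed by -0.143, adjusted p = 0.509). Glial transcripts were present as well, such as Gja1, the gap junction protein of astrocytes, at 12.18, 12.16 and 12.29 log2 units at 15 h, against 11.18, 11.17 and 11.02 at 8 h. Of 17 endothelial and mural markers 3 were measured, of 18 microglia markers 7, of 20 meningeal markers 8 and of 10 red blood cell genes 1. In such mixed cultures fewer cells of a type and less RNA per cell cannot be told apart.

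Between 8 and 15 h a large share of the transcriptome moved. Of 9710 genes tested, 4350 (44.8%) differed at an adjusted p under 0.05 (limma, Benjamini-Hochberg), 2050 (21.1%) of them higher and 2300 (23.7%) lower at 15 h. Most of these changes were small, with a median size of 0.512 log2 units. At least 2-fold changes were seen for 253 genes that rose and 222 that fell (together 4.89% of the genes tested), and at least 4-fold ones for 30 that rose and 11 that fell. In each of these genes the 3 arrays of 15 h did not overlap with the 3 arrays of 8 h, and 99.9% of all called genes had the same sign within each of the 3 pairs of arrays that shared a slide. Calling genes on these same arrays favours both features, so they are no separate support. The median of all genes was -0.001. Of the called genes 47.1% were higher, a share that depended on the scaling: it was 26.3% when arrays were centred on their medians, which moved the median of all genes to -0.128, and 30.3% in the authors' ratio table, with a median of -0.081. Small differences are therefore relative to the scaling. Where a printed median of a list moved by over 1.5 times on median centring or in the authors' ratios, that value is given beside it. Counts of list members below stand against the 21.1% higher and 23.7% lower of all genes tested.

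**Figure D1:**
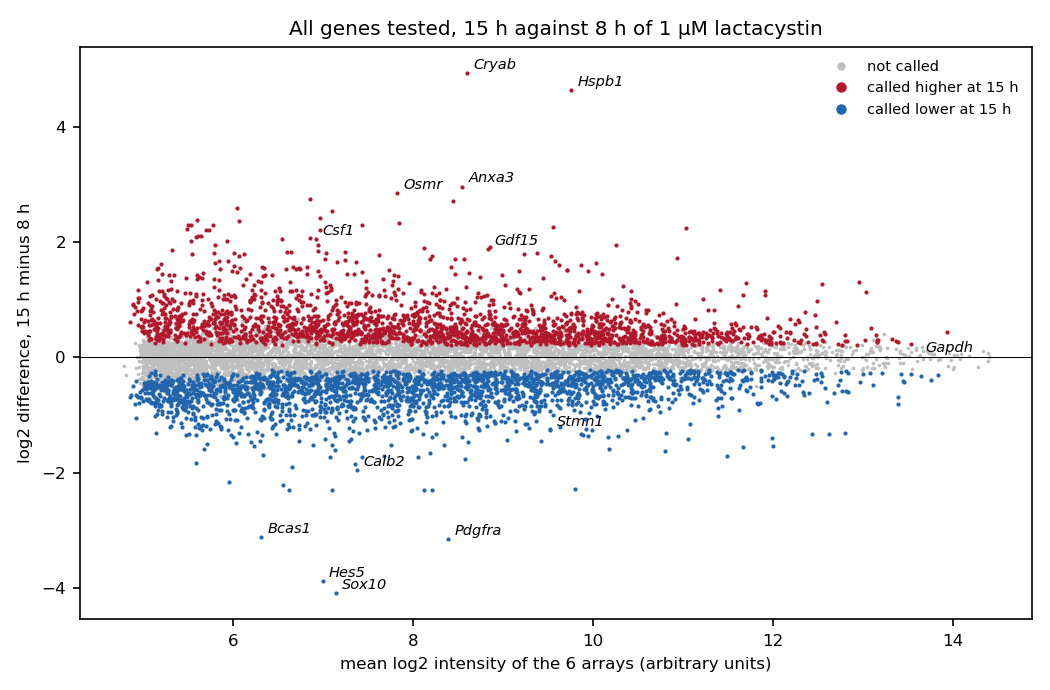
Log2 difference between 15 h and 8 h of 1 µM lactacystin (vertical axis) against the mean log2 intensity of the 6 arrays (horizontal axis), 1 point per gene tested, coloured by call. The rises of Cryab (4.94) and Hspb1 (4.63) and the falls of Sox10 (-4.09) and Hes5 (-3.88) are the most extreme in each direction.

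Small heat shock proteins gave the largest rises of all genes tested. Cryab, the chaperone alpha-B crystallin, read 10.95, 11.13 and 11.13 log2 units in the 15 h arrays, against 5.99, 6.18 and 6.23 in the 8 h arrays. The groups lay far apart, 30.6-fold higher at 15 h (log2 difference 4.94, SE 0.097, adjusted p = 3.45e-07 by limma). Hspb1, the small heat shock protein also called Hsp27, read 11.91, 12.09 and 12.21 at 15 h, against 7.40, 7.46 and 7.46 at 8 h. It was 24.8-fold higher (log2 difference 4.63, SE 0.095, adjusted p = 3.45e-07 by limma). Their earlier courses differed: the mean of Hspb1 stood 0.45, 2.36, 6.996 and 7.38 log2 units above that of untreated cultures at 5, 8, 15 and 24 h, whereas the mean of Cryab stood at -0.79, -1.45, 3.48 and 4.40, that is, below the untreated level until 8 h. Another member, Hspb8, and its partner Bag3, a co-chaperone that sends misfolded clients to autophagy, had risen by 8 h and went on rising. Hspb8 read 10.64, 10.66 and 10.72 at 15 h, against 9.03, 9.18 and 9.01 at 8 h (3.03-fold). Bag3 read 10.27, 10.54 and 10.62 at 15 h, against 8.96, 9.03 and 8.88 at 8 h (2.87-fold).

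The larger chaperones followed on a smaller scale. Of 27 measured heat shock genes and HSF1 targets 17 rose and 3 fell, 10 of them by at least 2-fold upward, and the list's median difference was 0.616, or 0.663, 0.625 and 0.569 within the 3 slides. Both parts of the mitochondrial chaperonin rose, Hspe1 by 1.60 (adjusted p = 0.00213 by limma) and Hspd1 by 1.16 (adjusted p = 0.000293). Among cytosolic chaperones Hsph1 rose by 1.31, Hsp90aa1 by 1.01 and the Hsp40 protein Dnajb1 by 0.62, while Hspa8, the constitutive Hsp70, showed 0.09 without passing the test. Probes disagreed for 2 of these, since dimmer probes of Hsp90aa1 gave 1.316 and 0.315 (adjusted p = 0.0652 for the smaller) and those of Hspa8 gave 0.698 (adjusted p = 0.0381) and 0.045. Serpinh1, the collagen chaperone of the endoplasmic reticulum, rose by 1.27. The 3 members that fell were Hspa2 (-0.81), the HSF1 gene itself (Hsf1, -0.56) and Fkbp4 (-0.27). All 8 subunits of the TRiC chaperonin, which folds actin and tubulin, had positive differences with a median of 0.263 (0.136 on median centring and 0.118 in the authors' ratios), and 3 passed the test, Cct8, Tcp1 and Cct6a at 0.41 to 0.47. With arrays centred on their medians no TRiC subunit passed, and 5 passed without replicate 3 of the 15 h group.

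The promoters of several of these genes hold the heat shock element core, searched as GAANNTTC or TTCNNGAA (2 inverted units of the HSF1 site) in 300-base windows from 250 bases before to 50 after the annotated start, from RefSeq on GRCm38.p6. The core was present for 9 of the 14 risen heat shock genes that have a promoter in the table (64.3%), against 13.9% of the 7179 tested genes with a promoter and 17.0% of all 27025 genes in the table. It was absent for Dnajb1, Dnajb2, Stip1, Ahsa1 and Serpinh1. Hspd1 and Hspe1 both count, through the same stretch read on opposite strands. A gene with several windows counted if any held the core, and for Hspd1, Dnaja4 and Dnajb4 only 1 window did. The list was drawn up as heat shock genes and HSF1 targets, so a high share is in part built in. The share among members that did not rise was not counted. A match is a stretch of letters and was not tested as a site. The windows below are those of Hspb1, whose level rose most among the genes with a listed window, of Hspb8 and Bag3, whose proteins act together, and of Hspd1, whose window overlaps that of its chaperonin partner Hspe1 on the other strand. Capitals mark the core, and overlapping copies run together.
Hspb1, chr5:135887669-135887968, plus strand: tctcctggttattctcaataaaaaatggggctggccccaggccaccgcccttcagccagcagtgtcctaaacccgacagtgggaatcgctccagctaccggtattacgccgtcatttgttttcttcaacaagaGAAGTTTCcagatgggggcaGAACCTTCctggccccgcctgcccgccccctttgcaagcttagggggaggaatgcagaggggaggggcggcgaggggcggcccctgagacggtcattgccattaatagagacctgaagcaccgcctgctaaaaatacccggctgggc
Hspb8, chr5:116422815-116423114, minus strand: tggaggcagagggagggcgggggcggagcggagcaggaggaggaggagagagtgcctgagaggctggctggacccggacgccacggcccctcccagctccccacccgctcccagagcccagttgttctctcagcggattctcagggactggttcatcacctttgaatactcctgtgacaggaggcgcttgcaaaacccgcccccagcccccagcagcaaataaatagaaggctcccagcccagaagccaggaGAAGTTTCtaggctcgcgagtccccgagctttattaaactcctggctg
Bag3, chr7:128523333-128523632, plus strand: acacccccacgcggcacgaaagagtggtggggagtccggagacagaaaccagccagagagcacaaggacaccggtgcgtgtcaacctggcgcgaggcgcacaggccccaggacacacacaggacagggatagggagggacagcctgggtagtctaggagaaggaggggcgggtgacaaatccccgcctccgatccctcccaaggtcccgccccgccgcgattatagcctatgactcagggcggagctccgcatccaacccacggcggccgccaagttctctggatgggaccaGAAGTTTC
Hspd1, chr1:55087883-55088182, minus strand: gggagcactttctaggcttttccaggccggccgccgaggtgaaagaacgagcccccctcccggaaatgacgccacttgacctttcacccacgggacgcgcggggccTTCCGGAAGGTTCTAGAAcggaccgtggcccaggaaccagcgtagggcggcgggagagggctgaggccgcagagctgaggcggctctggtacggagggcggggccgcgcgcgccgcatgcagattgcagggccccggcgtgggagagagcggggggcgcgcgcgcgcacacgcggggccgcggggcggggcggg

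Next to the chaperones stood genes of cytokine signalling and of the cell surface. Osmr, the receptor subunit for oncostatin M, read 9.14, 9.31 and 9.30 log2 units at 15 h, against 6.18, 6.60 and 6.41 at 8 h, a 7.23-fold rise (adjusted p = 1.19e-05 by limma). Il11, a cytokine of the interleukin-6 family, read 7.23, 7.36 and 7.44 at 15 h and was below detection on all 3 arrays of 8 h (4.55, 4.66 and 5.05), which makes it at least 4.78-fold higher (adjusted p = 2.19e-05 by limma). For such genes the bound sets the 15 h mean against the lowest signal that counted as detected on each 8 h array, or the probe's own signal where that was higher. Plaur, the urokinase receptor, went above background in the same way, at 7.25, 7.17 and 7.32 at 15 h against 4.93, 4.71 and 5.00 at 8 h, at least 4.49-fold (adjusted p = 1.19e-05). The annexin Anxa3 read 9.91, 10.01 and 10.17 at 15 h, against 7.07, 7.25 and 6.87 at 8 h (7.81-fold). Emp1, a membrane protein of the claudin-like PMP22 family, read 9.62, 9.88 and 9.88 at 15 h, against 7.05, 7.11 and 7.10 at 8 h (6.54-fold). The remaining 5 of the 12 largest rises were the cyclic nucleotide phosphodiesterase Pde8a (6.70-fold), the water and glycerol channel Aqp9 (5.84-fold), the collagen XVIII chain Col18a1 (5.35-fold), the tyrosine phosphatase Ptpn14 (at least 3.27-fold, below detection at 8 h) and 1110055E19Rik (5.04-fold).

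**Figure D2:**
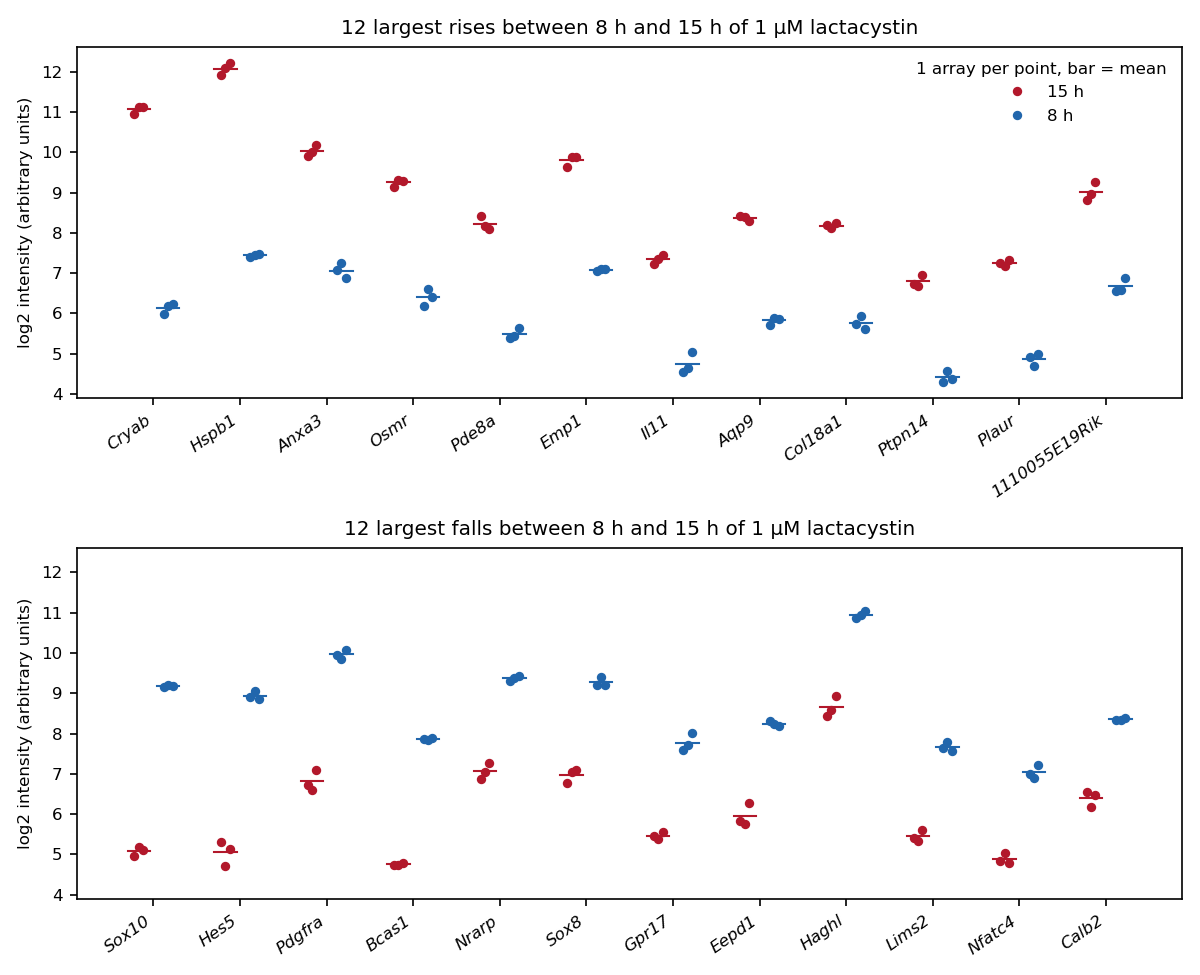
Log2 intensity of each array (points) and the group mean (bars) for the 12 genes with the largest rises (top) and the 12 with the largest falls (bottom), with 15 h in red left of 8 h in blue. In all 24 genes, which were chosen on these values, the 3 arrays of 15 h lie apart from the 3 of 8 h.

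Transcription factors of the AP-1 family, dimers of FOS and JUN proteins whose site was searched below as TGANTCA, moved in different directions. Fosl1, which encodes the FOS-like subunit FRA-1, read 6.70, 6.61 and 6.75 at 15 h and was below detection at 8 h (4.42, 4.38 and 4.36), at least 3.03-fold higher (adjusted p = 6.62e-06 by limma). Maff, a small MAF protein and so neither a FOS nor a JUN protein, rose by 1.30. It read 8.62, 8.62 and 8.57 at 15 h, against 7.30, 7.32 and 7.30 at 8 h. Fos itself fell by 0.50 (adjusted p = 0.00497), at 8.39, 8.48 and 8.21 at 15 h against 8.95, 8.87 and 8.77 at 8 h, although it stayed 1.12 above the untreated mean, and this call did not hold when all 24 arrays shared 1 estimate of the spread (adjusted p = 0.555). The activity-dependent factor Npas4, detected on 2 of 3 arrays at 15 h, fell by 1.00, a call also lost with all 24 arrays (adjusted p = 0.0859). Of 22 measured immediate early genes 10 rose and 4 fell, with a median of 0.255, which was 0.149 on median centring and 0.096 in the authors' ratios. Of the feedback inhibitors of MAP kinase signalling 8 of 13 measured rose and none fell, with a median of 0.549, led by Dusp6 (1.39) and Dusp4 (1.07).

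The AP-1 letters were found in the window of 5 of the 9 genes among the 12 largest rises that have one, in 16.4% of the 177 windowed genes that rose at least 2-fold, in 8.81% of the 159 that fell at least 2-fold, and in 6.23% of the tested genes and 8.97% of all genes with a window. Both strands were searched, and a gene with several windows counted once if any held the letters. The middle base was left free: Il11 matched as TGAGTCA and Plaur as TGACTCA, but Osmr as TGATTCA. The search is thus wider than a single site, and no match was tested as a site. The windows of 3 of those 5 genes are given below, with TGANTCA in capitals, because their levels were at or near background at 8 h (Il11, Plaur) or among the largest rises (Osmr).
Il11, chr7:4778092-4778391, minus strand: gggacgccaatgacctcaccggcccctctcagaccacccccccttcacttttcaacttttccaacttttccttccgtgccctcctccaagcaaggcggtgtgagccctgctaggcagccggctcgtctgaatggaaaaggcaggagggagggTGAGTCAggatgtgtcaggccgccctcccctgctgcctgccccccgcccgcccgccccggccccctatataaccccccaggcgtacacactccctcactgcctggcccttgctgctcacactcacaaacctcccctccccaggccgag
Plaur, chr7:24462233-24462532, plus strand: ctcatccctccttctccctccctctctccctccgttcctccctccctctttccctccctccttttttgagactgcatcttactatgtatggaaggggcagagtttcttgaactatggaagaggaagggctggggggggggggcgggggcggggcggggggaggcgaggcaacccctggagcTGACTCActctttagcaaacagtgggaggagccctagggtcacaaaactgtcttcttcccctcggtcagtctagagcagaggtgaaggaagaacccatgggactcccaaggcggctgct
Osmr, chr15:6874264-6874563, minus strand: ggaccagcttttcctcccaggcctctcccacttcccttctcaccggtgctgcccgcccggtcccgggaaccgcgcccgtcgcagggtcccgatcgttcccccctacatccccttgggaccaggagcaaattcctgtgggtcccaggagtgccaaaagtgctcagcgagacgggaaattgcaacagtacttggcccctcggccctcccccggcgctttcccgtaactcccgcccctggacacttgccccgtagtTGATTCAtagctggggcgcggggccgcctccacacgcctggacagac

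Of 15 measured inflammatory genes 11 were higher and 3 lower, with a median of 0.53 (0.686, 0.461 and 0.544 within slides), or 0.308 in the authors' ratios. The summed level of the list was 8490 to 9390 intensity units at 15 h, against 3970 to 4077 at 8 h, and most of that difference was Tnfrsf12a. This receptor for the cytokine TWEAK read 12.04, 12.16 and 12.26 log2 units at 15 h, against 9.88, 9.91 and 9.94 at 8 h (4.73-fold), on top of a mean 3.05 above the untreated level at 8 h. The neutrophil chemokine Cxcl1 read 8.15, 7.92 and 8.14 at 15 h, against 5.70, 5.92 and 5.95 at 8 h (4.64-fold). Csf1, the growth factor of macrophages and microglia, rose by 2.05, and the adhesion molecule Icam1, below detection on all 3 arrays of 8 h, was at least 2.39-fold higher at 15 h. The 3 that fell were the NF-κB subunit gene Relb (-0.58), the NF-κB inhibitor Nfkbia (at least 1.16-fold lower, below detection at 15 h) and the cytokine signalling inhibitor Socs3 (-0.38). Beside these, 3 of 7 measured microglia markers rose and 1 fell, with a median of -0.009 (-0.045 on median centring and -0.027 in the authors' ratios). The summed level of the list was 870 to 937 units at 15 h against 606 to 713 at 8 h. The part of these markers in the inflammatory genes was not tested. The marker that fell was Aif1 (-0.37, adjusted p = 0.00872 by limma), below detection on all 3 arrays of 15 h. Its call was lost with all 24 arrays in the fit (adjusted p = 0.123). Lyz2 showed -0.36 without passing. The fractalkine receptor Cx3cr1 read 6.19, 5.85 and 5.98 log2 units at 15 h and was below detection on each 8 h array, at least 1.90-fold higher, and the lysosomal marker Cd68 rose by 1.43, whereas Trem2 and C1qa, detected on 3 and 4 of the 6 arrays, showed -0.01 and -0.03. With slide as a block, and without replicate 1 of the 8 h group, 2 microglia markers fell.

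Genes of the actin cytoskeleton and targets of the transcription factor SRF were divided between rises and no call. Of 23 measured members of the actin and SRF list 13 were higher and 1 lower, with a median of 0.373, or 0.21 on median centring and 0.217 in the authors' ratios. With slide as a block or without replicate 3 of the 15 h group 3 were lower, 2 without replicate 1 of the 8 h group, and none when genes had to be detected on all 6 arrays. After Anxa3, the matricellular protein Ccn2 read 8.55, 8.37 and 8.82 at 15 h, against 6.35, 6.25 and 6.25 at 8 h (4.92-fold), Anxa2 rose by 1.95 and its partner S100a10 by 1.58. The cytoplasmic actins Actb and Actg1 showed -0.17 and -0.48 without passing the test, Actg1 being detected on 2 of 3 arrays in each group, and 2 dimmer probes of Actb disagreed (-0.351 and 0.535).

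The p53 targets had a median of 0.673, or 0.941, 0.631 and 0.607 within slides and 0.413 in the authors' ratios. Of 26 measured 19 were higher, 11 of them by at least 2-fold, and 1 (the repair gene Xpc, -0.39) was lower. Lower members numbered 2 with slide as a block or without replicate 2 of the 8 h group. Ddb2 showed -0.474 without passing, but its dimmer probe passed downward (-0.888, adjusted p = 0.0012 by limma). A dimmer probe of Mdm4, counted as higher, gave 0.314 without passing (adjusted p = 0.0978). Dimmer probes of Aen, Bbc3, Ccng1 and Cdkn1a passed upward. Phlda3, which restrains the kinase AKT, read 7.99, 7.85 and 7.77 at 15 h, against 6.35, 6.26 and 5.47 at 8 h (3.59-fold, adjusted p = 0.000618 by limma). Ccng1 read 8.77, 9.15 and 9.36 at 15 h, against 7.26, 7.38 and 7.34 at 8 h (3.40-fold). The cell cycle inhibitor Cdkn1a read 11.92, 12.06 and 12.01 at 15 h, against 10.90, 10.72 and 10.83 at 8 h (2.26-fold), and Gadd45a rose 3.18-fold. Mdm2, the ubiquitin ligase that limits p53, rose by 1.08, and the p53 gene Trp53 by 0.27. Relative to untreated cultures the list's median stood at 0.124, 0.294, 1.012 and 1.281 at 5, 8, 15 and 24 h.

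Genes of cell death split by their place in the pathway. Among the BH3-only proteins, which trigger the mitochondrial route, Bcl2l11 (BIM) read 7.45, 7.44 and 7.64 at 15 h, against 5.81, 6.02 and 6.04 at 8 h (2.94-fold), Pmaip1 (NOXA), detected on 2 of 3 arrays at 8 h, rose by 1.05 and Bbc3 (PUMA) by 0.54, or by 1.06 on another probe. The death receptor Fas was below detection at 8 h and at least 1.86-fold higher at 15 h. Apaf1, the core of the apoptosome, rose by 0.69, whereas its caspase Casp9 fell by 0.42 and the initiator Casp2 by 0.56. Of 28 measured proapoptotic genes 12 rose and 8 fell, with a median of 0.076 that turned to -0.068 on median centring and to -0.031 in the authors' ratio table. Without replicate 2 of the 8 h group 4 fell, and without replicate 1 or 2 of the 15 h group 5 did. Antiapoptotic genes had 3 of 11 higher and 3 lower, not far above the shares over all genes tested (21.1% and 23.7%). Among the lower was Birc5 (-0.76), which is also a gene of cell division. The highest value was that of Nol3 (0.65), whose 2 dimmer probes gave 0.035 and 0.119 without passing (adjusted p = 0.879 and 0.447). Fewer passed in either direction without replicate 2 of the 15 h group (1 higher and 1 lower), and 1 was lower without replicate 1 of the 8 h group.

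Members of the ATF4 and CHOP programme, which rewires amino acid supply, had largely risen by 8 h and rose modestly afterwards. The list's median above untreated cultures was 0.534, 1.231, 1.418 and 1.396 at 5, 8, 15 and 24 h. Between 8 and 15 h 19 of 32 measured members were higher, 4 by at least 2-fold, with a median of 0.333 (0.216 on median centring), and none was lower. With slide as a block and in the authors' ratios 3 were lower, and 1 was on median centring, with array weights and without replicate 1 or 3 of the 15 h group. With all 24 arrays in the fit 11 were higher, and 12 on median centring. Among members not called, dimmer probes passed upward for Asns (0.53) and Eif4ebp1 (0.595) and downward for Cars (-0.498). Gdf15, a secreted stress hormone, read 9.74, 9.80 and 9.78 at 15 h, against 8.00, 7.89 and 7.80 at 8 h (3.68-fold). Atf3 read 9.25, 9.31 and 9.54 at 15 h, against 8.39, 8.43 and 8.30 at 8 h (1.99-fold), by when it already stood 3.70 above the untreated mean. Cth, an enzyme of cysteine synthesis, was below detection at 8 h and at least 1.77-fold higher at 15 h. Ddit3, which encodes CHOP, rose by 0.40 (adjusted p = 0.00763) and Trib3, its target, by 0.62 (adjusted p = 0.000888), and both calls were lost with all 24 arrays in the fit (adjusted p = 0.167 and 0.274), that of Ddit3 also on median centring (0.0857). Atf4 itself showed -0.31 without passing.

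Of the cytosolic aminoacyl tRNA synthetases, which charge tRNAs and are in part ATF4 targets, 9 of 15 rose and 2 fell, with a median of 0.335 (0.19 on median centring and 0.198 in the authors' ratios), led by Rars (0.85) and Wars (0.82). On median centring 3 were higher, and 1 was lower without replicate 1 or 2 of the 15 h group or replicate 2 or 3 of the 8 h group. Probes disagreed for Sars, with 0.41 on the brightest and -0.701 on a dimmer one (adjusted p = 0.00244 by limma). They also disagreed for Cars, with 0.13 without passing and -0.498 (adjusted p = 0.00191). Dimmer probes of Aars, Iars, Tars and Wars kept the direction. Chaperones and sensors of the endoplasmic reticulum were split, 5 of 17 higher and 6 lower, with a median of -0.066 (-0.158 on median centring and -0.121 in the authors' ratios). Hspa5 (BiP), the main chaperone there, read 7.31, 7.74 and 7.72 at 15 h, against 6.61, 6.35 and 6.46 at 8 h (2.17-fold), and the sensor kinase Eif2ak3 (PERK) rose 2.01-fold, whereas Xbp1 (-0.36) and Pdia4 (-0.49) fell. Selenos also fell on its brightest probe (-0.54), while its other probe gave -0.203 without passing (adjusted p = 0.128). Higher members numbered 2 without replicate 2 of the 15 h group and 3 without replicate 1 of the 8 h group.

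NRF2 targets, which handle oxidants, were higher for 13 of 26 measured genes and lower for 3, with a median of 0.291, or 0.176 on median centring. Srxn1, which repairs peroxiredoxins, read 11.76, 11.80 and 11.82 at 15 h, against 10.17, 10.07 and 9.97 at 8 h (3.30-fold). Hmox1, the haem-degrading enzyme, read 12.21, 12.17 and 12.65 at 15 h, against 10.88, 11.21 and 11.05 at 8 h (2.46-fold). The pathway's own switches fell, Nfe2l2 (NRF2) by 0.54 and its inhibitor Keap1 by 0.36, although a dimmer Keap1 probe gave -0.091 (adjusted p = 0.44). Nfe2l2 was detected on 2 of 3 arrays at 15 h, and its call was lost without replicate 2 of the 8 h group (adjusted p = 0.051). Of the metallothioneins, metal-binding proteins, Mt3 of neurons and astrocytes fell by 0.97, while Mt1 rose by 0.45, a call lost on median centring (adjusted p = 0.0517).

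Proteasome subunits themselves had risen before this step. Their median above untreated cultures was 0.286, 0.676, 0.907 and 0.837 at 5, 8, 15 and 24 h, and between 8 and 15 h 12 of 35 measured subunits and assembly factors were higher and 1 (Psmd10, -0.33) lower, with a median of 0.226, or 0.076 on median centring and 0.105 in the authors' ratios. The 2 dimmer Psmd10 probes gave -0.334 and -0.395 without passing (adjusted p = 0.0955 and 0.156). This count rested on the scaling: 1 was higher on median centring and 4 in the authors' ratio table, and 7 were higher without replicate 2 of the 15 h group or without any 1 of the 8 h arrays. The catalytic subunit Psmb5, which lactacystin modifies, read 11.01, 11.02 and 11.22 at 15 h, against 10.65, 10.59 and 10.49 at 8 h (1.42-fold, adjusted p = 0.00346 by limma). Psmd4, the ubiquitin receptor of the regulatory particle, read 13.13, 13.29 and 13.33 at 15 h, against 13.09, 13.12 and 13.16 at 8 h, which did not pass (adjusted p = 0.25). In the ubiquitin system 8 of 24 measured genes were higher, or 3 on median centring and 5 without replicate 3 of the 8 h group. Sqstm1 (p62), the autophagy adaptor for ubiquitin-tagged cargo, read 12.79, 12.83 and 12.88 at 15 h, against 12.08, 12.15 and 12.04 at 8 h (1.67-fold).

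**Figure D3:**
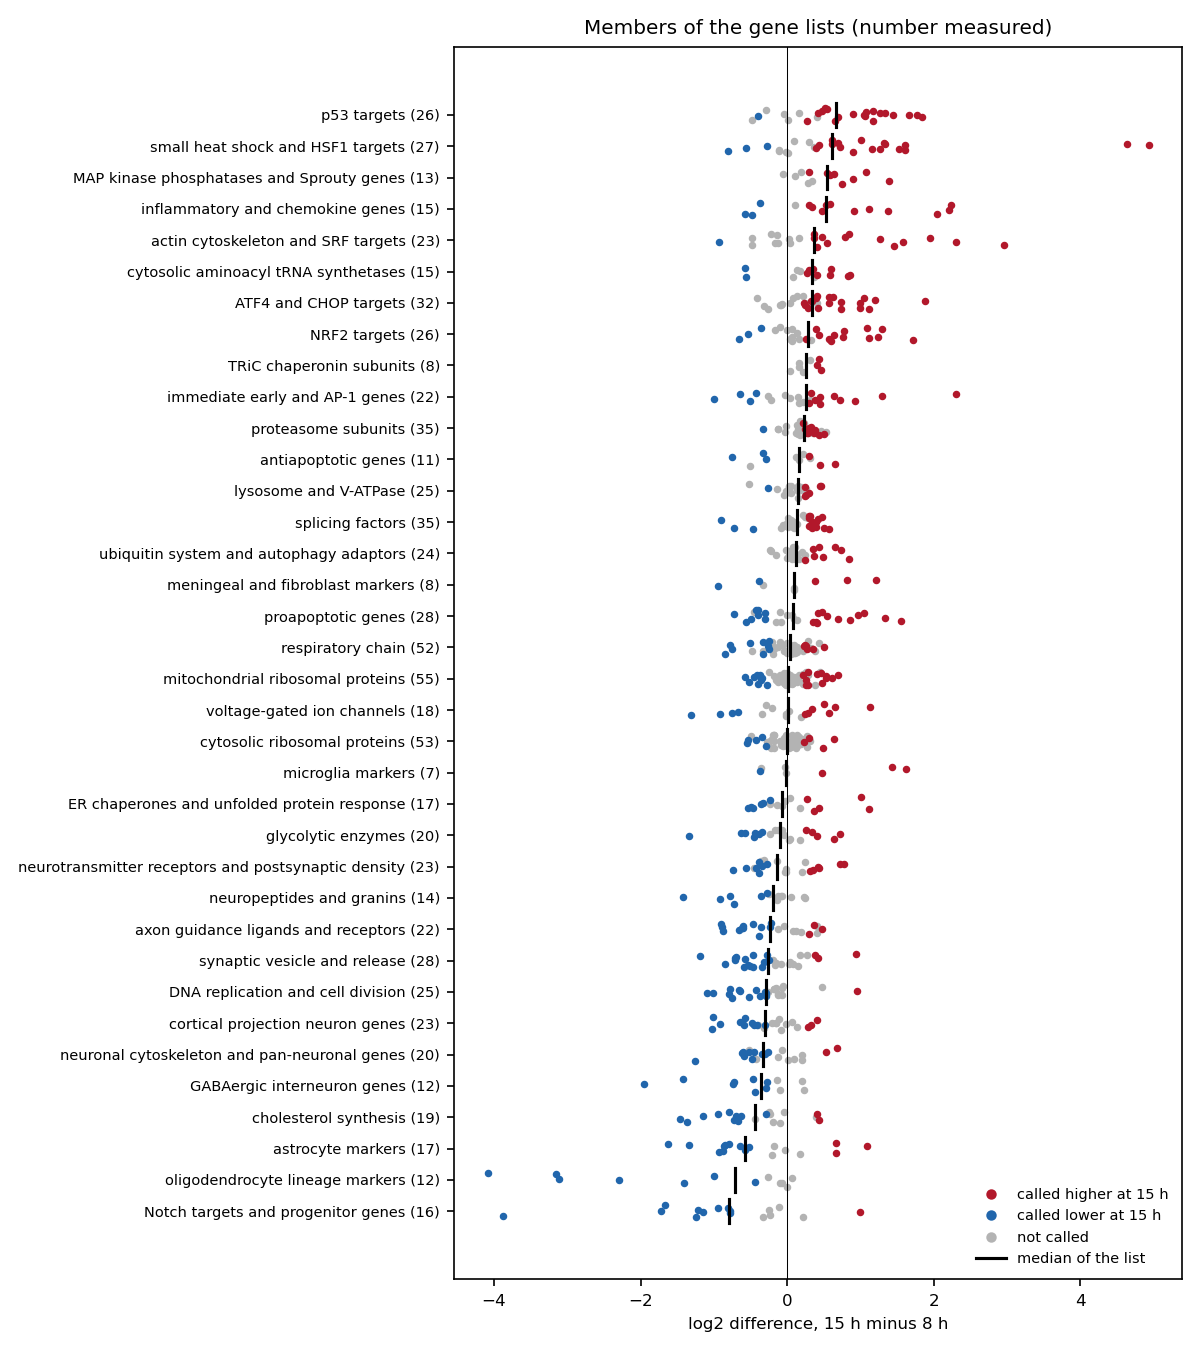
Log2 difference between 15 h and 8 h of each measured member of the lists with at least 7 measured genes (points, coloured by call) with the list's median (black bar), ordered by median. The medians run from 0.673 for p53 targets (0.413 in the authors' ratios, below the 0.51 of the heat shock list there) to -0.793 for Notch targets and progenitor genes. Those of the proapoptotic, respiratory chain, cytosolic and mitochondrial ribosomal, ion channel and meningeal lists changed sign on median centring.

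The largest fall of all genes tested, Sox10, belonged to the oligodendrocyte lineage, the glial cells that make myelin and whose precursors divide in such cultures. Sox10, a transcription factor of this lineage, read 4.97, 5.19 and 5.12 log2 units at 15 h, with 2 of 3 arrays above detection, against 9.17, 9.21 and 9.18 at 8 h. The groups were 17.0-fold apart (log2 difference -4.09, SE 0.084, adjusted p = 3.45e-07 by limma). Until 8 h its mean had stayed within 0.46 of the untreated mean, at -0.25 and -0.45 at 5 and 8 h, and then stood at -4.54 and -4.05 at 15 and 24 h. Pdgfra, the growth factor receptor of the precursors, read 6.73, 6.60 and 7.11 at 15 h, against 9.96, 9.86 and 10.07 at 8 h (8.89-fold lower). Bcas1, a protein of newly formed oligodendrocytes, was below detection at 15 h (4.75, 4.74 and 4.78) and at 7.88, 7.84 and 7.90 at 8 h, at least 6.88-fold lower. Gpr17 fell 4.93-fold and the related factor Sox8 4.94-fold. Olig1 fell by 1.40 and Olig2 by 0.44, whereas the myelin genes Mbp and Cnp showed 0.06 and -0.07 without passing. In all 7 of 12 measured markers fell and none rose, with a median of -0.718, and the summed level of the list was 3091 to 3279 intensity units at 15 h, against 9166 to 9316 at 8 h.

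Targets of the Notch pathway, by which neighbouring cells keep each other undifferentiated, fell with them. Hes5, a direct Notch target and repressor of neuronal genes, read 5.31, 4.72 and 5.14 at 15 h, with 2 of 3 arrays above detection, against 8.92, 9.05 and 8.85 at 8 h (14.8-fold lower, adjusted p = 9.28e-06 by limma). Its mean had been 0.96 above untreated cultures at 5 h and -0.21 at 8 h. Nrarp, a Notch target that feeds back on the pathway, read 6.87, 7.04 and 7.27 at 15 h, against 9.30, 9.38 and 9.43 at 8 h (4.95-fold lower). Hes1 read 6.48, 6.38 and 6.85 at 15 h, against 8.06, 8.39 and 8.43 at 8 h (3.31-fold lower), and its mean lay 0.31 below the untreated level at 15 h, against 1.42 above it at 8 h. Hey1 fell by 1.24 and the receptor Notch1 by 0.78. Of 16 measured Notch targets and progenitor genes 10 fell and 1 rose, with a median of -0.793, or -0.707, -0.978 and -0.716 within slides. The one that rose was Nes, the intermediate filament of progenitors and reactive astrocytes, at 8.39, 8.20 and 8.33 at 15 h against 7.32, 7.25 and 7.40 at 8 h (1.99-fold).

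Astrocyte markers were divided. Of 17 measured 10 fell and 3 rose, with a median of -0.577, which ran from -0.775 to -0.202 between slides. Sox9, the transcription factor of the lineage, read 9.76, 10.03 and 10.17 at 15 h, against 11.55, 11.62 and 11.64 at 8 h (3.08-fold lower), and the glycolytic enzyme Aldoc read 9.19, 9.18 and 9.21 at 15 h, against 10.51, 10.65 and 10.44 at 8 h (2.52-fold lower), with -0.536 on another probe. The water channel Aqp4 fell 1.84-fold. Gja1 rose 2.13-fold, Clu by 0.67 and Vim by 0.66. The summed level of the list, in which Gja1 is bright, was 20925 to 23123 intensity units at 15 h against 20190 to 21306 at 8 h.

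Neuronal transcripts were divided as well. Among 20 measured pan-neuronal and cytoskeletal genes 10 were lower and 2 higher, with a median of -0.324, or -0.508 on median centring (1 was higher without replicate 2 or 3 of the 15 h group or replicate 1 or 2 of the 8 h group) and a summed level of 52293 to 53304 units at 15 h, against 62148 to 64059 at 8 h. The microtubule regulator Stmn1 read 9.21, 8.999 and 8.48 at 15 h, against 10.70, 10.08 and 9.69 at 8 h (2.40-fold lower, adjusted p = 0.00844 by limma), and Dcx fell 1.54-fold. The neurofilament Nefm rose by 0.68. Tubb2b showed 0.096 without passing, but its dimmer probe passed downward (-0.764, adjusted p = 0.000315 by limma). Dimmer probes of Mapt and Map2 kept the direction. Of 28 synaptic vesicle genes 15 were lower and 3 higher, with a median of -0.257, and 9 were lower without replicate 2 or 3 of either group. Syp, the vesicle protein synaptophysin, read 11.54, 11.62 and 11.52 at 15 h, against 11.63, 11.74 and 11.57 at 8 h, without passing (adjusted p = 0.418). The vesicular glutamate transporters parted: Slc17a6 read 10.72, 11.05 and 10.88 at 15 h, against 9.78, 10.05 and 9.97 at 8 h (1.93-fold higher), while Slc17a7 read 6.61, 6.51 and 6.15 at 15 h, against 7.15, 7.30 and 6.96 at 8 h (1.65-fold lower). Postsynaptic receptors and scaffolds had 6 of 23 higher and 7 lower, not far above the shares over all genes tested (21.1% and 23.7%). Without replicate 2 of the 8 h group 2 were higher and 3 lower, and without replicate 2 of the 15 h group 2 were higher. Leaving out replicate 3 of the 8 h group left 3 higher and 3 lower. A dimmer probe of Gria3, counted as higher, passed downward (-0.572, adjusted p = 0.0355 by limma), while those of Homer1 and Camk2a kept the direction.

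Markers of inhibitory interneurons fell in 8 of 12 measured genes, with a median of -0.363. Calb2 (calretinin) read 6.56, 6.17 and 6.48 at 15 h, against 8.34, 8.35 and 8.39 at 8 h (3.88-fold lower). The peptide Sst (somatostatin) read 10.63, 10.49 and 9.90 at 15 h, against 11.85, 11.70 and 11.73 at 8 h (2.67-fold lower), Npy fell by 0.72 and the vesicular GABA transporter Slc32a1 by 0.74. The developmental factor Dlx6 of the same cells showed 0.20 without passing. Lower members numbered 5 without replicate 2 of the 15 h group or any 1 of the 8 h arrays. Genes of projection neurons were lower for 10 of 23 and higher for 3, with a median of -0.30, led by Mef2c (2.03-fold lower) and Crym (2.01-fold lower), while Tbr1, a marker of deep layers, read 8.35, 8.32 and 8.44 at 15 h and 8.24, 8.36 and 8.30 at 8 h, overlapping. Cux1, a projection neuron gene counted as lower (-0.452), gave 0.205 and -0.019 on dimmer probes without passing (adjusted p = 0.495 and 0.904 by limma). Dimmer probes of Sox5 and Mef2c passed downward. Axon guidance genes had 12 of 22 lower, led by Efnb1 (-0.90) and Efnb3 (-0.89), and 3 higher. Voltage-gated channels were split, 7 of 18 higher and 4 lower, with 4 higher without replicate 1 or 3 of the 8 h group, among them Cacng3, an AMPA receptor auxiliary subunit (2.19-fold higher), and the T-type calcium channel Cacna1g (2.48-fold lower).

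Cholesterol synthesis, a pathway controlled by SREBP2, fell at most of the steps measured to change. Of 19 measured genes 10 were lower and 2 higher, with a median of -0.435 and a summed level of 16054 to 18108 intensity units at 15 h, against 27467 to 27789 at 8 h. Mvd, which makes isopentenyl pyrophosphate, read 5.48, 5.29 and 5.65 at 15 h, against 6.88, 6.78 and 7.15 at 8 h (2.75-fold lower). Nsdhl read 9.28, 9.26 and 9.25 at 15 h, against 10.68, 10.59 and 10.62 at 8 h (2.58-fold lower), and Fdps fell by 1.15. The last enzyme of the pathway, Dhcr7, rose by 0.43, a call that did not hold on median centring (adjusted p = 0.185) or with all 24 arrays in the fit (0.058).

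Genes of DNA replication and division were lower for 14 of 25 measured members, with a median of -0.287, or -0.449 on median centring, among them the replicative helicase subunit Mcm5 (2.02-fold lower). Cdk2 was 2.13-fold lower on its brightest probe (-1.088), and its other probes gave -0.939, -0.638 and -0.277, the smallest without passing (adjusted p = 0.0838). Ccnd1, cyclin D1, read 9.17, 9.20 and 9.13 at 15 h, against 8.17, 8.22 and 8.24 at 8 h (1.94-fold higher). It was the one member that rose, or 1 of 2 with slide as a block and without replicate 2 of the 15 h group or replicate 1 of the 8 h group. Large housekeeping lists stayed near the median of all genes. Cytosolic ribosomal proteins had a median of 0.002 with 4 of 53 higher and 5 lower. Mitochondrial ribosomal proteins had 0.01 with 12 of 55 higher and 9 lower, and the respiratory chain 0.033 with 6 of 52 higher and 9 lower. Each median was negative on median centring (-0.112, -0.115 and -0.101) and in the authors' ratios (-0.077, -0.075 and -0.065). Glycolytic enzymes had 5 of 20 higher and 7 lower, beside 21.1% and 23.7% of all genes tested, with Hk2 up 1.65-fold and Ldha down 1.54-fold. Splicing factors had 12 of 35 higher and 3 lower, or 1 higher on median centring, and those that fell most were Hnrnpa1 (-0.90) and Hnrnpa2b1 (-0.73, or -1.171 on another probe). Lysosomal genes had 6 of 25 higher, none of which passed on median centring, and meningeal markers had 3 of 8 higher and 2 lower, among them Fn1 (2.31-fold higher) and Dcn (-0.94), whose other probes gave -0.559 and, without passing, -0.303 (adjusted p = 0.204). Leaving out 1 array moved several of these counts by over 1.5 times: higher respiratory chain genes numbered 2 or 3 without any 1 array other than replicate 3 of the 15 h group, higher mitochondrial ribosomal genes 6 or 7 without replicate 2 of the 15 h group or replicate 1 or 2 of the 8 h group, higher cytosolic ribosomal genes 2 without replicate 1 or 2 of the 8 h group, lower ones 3 without these or replicate 2 of the 15 h group, which also left 3 higher glycolytic genes each, higher lysosomal genes 3 without replicate 2 or 3 of either group, and lower meningeal markers 1 without replicate 1 of either group or replicate 2 of the 8 h group.

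**Figure D4:**
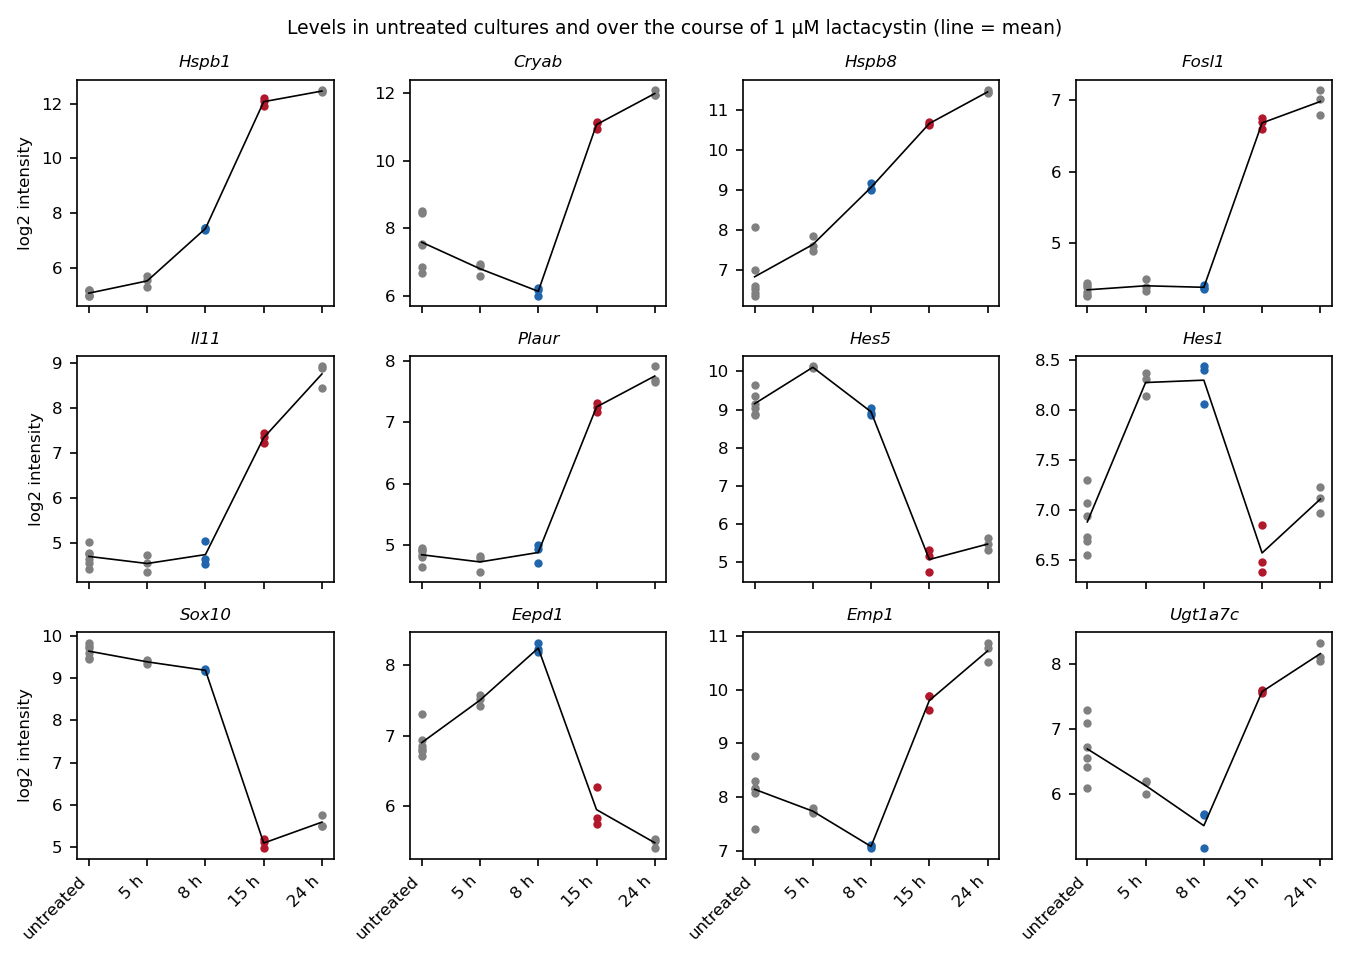
Log2 intensity in untreated cultures (6 arrays) and at 5, 8, 15 and 24 h of 1 µM lactacystin (3 arrays each) for 12 genes, with 8 h in blue, 15 h in red and a line through the means. Each panel has its own vertical scale. Fosl1, Il11 and Plaur are below detection at 8 h and above it at 15 h, Hes1 and Eepd1 are above the untreated level at 8 h and low at 15 h, and Emp1, Cryab and Ugt1a7c are below it at 8 h and high at 15 h.

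Set beside the untreated cultures and the other times, the step held genes that went on, genes that turned and genes that had been near the untreated level. These classes use the 8 h means and carry no test of their own. Of 198 genes whose 8 h mean stood at least 1 log2 unit above untreated cultures, 67 rose further and 51 fell. Of 115 genes at least 1 unit below at 8 h, 65 fell further and 20 rose. Over all genes tested 21.1% were higher and 23.7% lower. The share that turned down was thus close to the general share of falls, and the share that turned up was below that of rises. Among the genes that turned down, Eepd1 read 5.84, 5.75 and 6.27 at 15 h, against 8.32, 8.23 and 8.18 at 8 h, moving to 0.95 below the untreated mean, which it had exceeded by 1.34. The transcription factor Tfap2c read 7.21, 7.67 and 7.89 at 15 h, against 9.01, 9.17 and 9.14 at 8 h, and was back within 0.09 of the untreated mean, while its other probes gave smaller falls of -0.982 and -1.007. Among those that turned up besides Cryab and Emp1 were drug-conjugating enzymes: Ugt1a7c read 7.57, 7.59 and 7.54 at 15 h, against 5.17, 5.68 and 5.71 at 8 h (4.14-fold higher), Ugt1a6b, which shares exons with it at the Ugt1a locus so that their probes may not be independent, rose 3.87-fold, and the glutathione transferase Gsta4 2.36-fold.

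A further 2757 genes had stayed within 0.2 log2 units of both the untreated and the 5 h mean until 8 h, and 599 of these were higher and 479 lower at 15 h. Over all genes tested 21.1% were higher and 23.7% lower. The share of this class that rose was thus close to the general share, and the share that fell was below it. Those that rose most included Il11, Col18a1, Ptpn14, Plaur, Fosl1, the phospholipase Liph (at least 3.37-fold) and 4930511J11Rik (at least 2.95-fold). All of these but Col18a1 were below detection at 8 h, where background fixes their nearness to the untreated level, so earlier changes below detection were not measurable. Those that fell most included the cytokine Il18, at 5.64, 5.95 and 5.53 at 15 h against 7.69, 7.68 and 7.45 at 8 h (3.73-fold lower), the neural stem cell receptor Nr2e1 (3.16-fold lower) and the RNA-binding protein Rbmx, at 8.66, 8.73 and 8.69 at 15 h against 10.12, 10.19 and 10.13 at 8 h (2.73-fold lower). Of the 253 genes that rose at least 2-fold, 63 belonged to this class and 17 had already stood at least 1 unit above untreated cultures at 8 h. At 24 h 191 of the 253 stood above their 15 h mean and 62 between the means of 8 and 15 h. Of the 222 that fell at least 2-fold, 95 stood lower still at 24 h and 127 stood between both means. Both sets were picked on their 8 and 15 h means, so the place of the 24 h level beside those means depends in part on that choice.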

How the data were processed

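Per the file headers, the deposited tables hold intensity values per probe and array, and, per gene and array, the scanner's average intensity with a detection score given as a fraction. The authors' normalized ratio table equals each intensity over its array's median and over the mean of the controls, to within 1.87e-05. The submitters' processing notes name BeadStudio 3.2.6, and the background step behind the deposited intensity values was given by no source used here. Of 24691 probes 24613 had values. Symbols were updated by accession for 20514 probes, of which 7147 changed symbol, and 225 had none. The signals of the 6 arrays were background-corrected (normexp, parameters inferred from detection p, offset 16), quantile normalized and put on the log2 scale, in place of the deposited ratios. The other 18 arrays were mapped to the same quantiles for description. A probe's detection was read from its signal through the array's own relation of signal to detection score. Probes detected at p of at most 0.01 on at least 3 of the 6 arrays were kept (11862), and the brightest probe stood for each of 1734 genes with several, which left 9710 genes. Group means were fitted with limma 3.58.1 in R 4.3.3 without a block, with Benjamini-Hochberg adjustment over all genes and a threshold of 0.05. The fit alone was also run on simulated arrays with few changed genes and independent noise. That run left out background correction and scaling, so it says nothing on how the calls depend on these.

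The deposited treated replicates 1, 2 and 3 matched the scanner values of the arrays labelled 3, 1 and 2 of the same group (99.92% of 14487 genes equal within 1e-06), which leaves groups and slide pairs as they are. The labels put same-numbered arrays of both groups on 1 slide, which pairs them. Their deviations from the group means correlated at 0.344, -0.022 and 0.418.

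Named genes were the 12 largest rises and 12 largest falls, 2 in each direction for each of 39 lists, the 8 largest changes in each direction among genes that turned back or had stayed near the untreated level until 8 h, and a fixed set. Some genes that the rule names are not reported here. Members named beyond this rule were chosen after their values were seen. The members and lists were chosen with earlier results of these data known. Of 1061 listed genes 812 were measured. Alternatives covered background, scaling, filter, probes, arrays in the fit, slide block, array weights, variance model, the authors' ratios and each array left out.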

Additional observations from a re-analysis of the deposited data

How the results depend on the processing

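The number of called genes was 3840 on median centring, 3572 with all 24 arrays in the fit, 5080 with array weights and 4251 in the authors' ratio table, against 4350, and 3330 to 4024 when 1 array was left out. Higher genes numbered 1009 on median centring and 1290 in the authors' ratio table, and 1518 to 1895 with 1 array left out, and lower genes 1812 to 2184. At least 2-fold rises numbered 140 without background correction, 133 with an offset of 50 and 109 in the authors' ratio table, and 248 to 279 with 1 array left out. At least 2-fold falls numbered 99 without background correction, 95 with an offset of 50 and 376 on median centring, and 209 to 254 with 1 array left out. With slide as a replicate block 4782 genes were called, 2261 higher and 2521 lower, and no call of the 186 genes followed changed. The lists whose counts the pairing by slide moved by over 1.5 times are given with the results, except lysosomal genes, of which 2 were then lower. Of 3698 values of these genes under the alternatives 3584 kept direction and side of the threshold, 106 no longer passed, 1 (Actb with a variance trend) newly passed and 7 changed sign. None of those that changed sign had passed the test: Gapdh gave -0.156 on median centring, -0.089 with cyclic loess, -0.121 in the authors' ratios, -0.013 without replicate 2 of the 15 h group and -0.006 without replicate 3 of the 8 h group (up to 0.061 without another array), and Tbr1 gave -0.098 on median centring and -0.06 in the ratios. The causes were not tested. Folds of dim probes are limited by their signal over background.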
